A study of Mus musculus with 24 samples.

Results

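The livers described here are the 8 of a mouse study that received vutiglabridin, out of 24 livers measured. They were chosen by their treatment label alone, and they are called livers 1 to 8 after the replicate numbers in the labels. The study's design text speaks of drug treatment of the NASH liver, the fatty and inflamed stage of metabolic liver disease, and its title presents vutiglabridin as an agonist of paraoxonase-2. The 8 livers labelled vehicle serve as the reference for spread, and the 8 semaglutide livers did not enter. The labels give the tissue as liver, and they give no mouse model, strain, sex, age, diet, dose or duration, and do not say that each sample is a separate animal. What the p-values weigh is therefore sample-to-sample spread, some of which may be technical. The question was how far the 8 livers differed from each other, which genes differed together, and whether the spread of the same genes was smaller in vehicle.

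RNA was measured by sequencing of polyadenylated RNA and is given as FPKM, fragments counted on a gene, scaled for gene length and library size. Of 14293 genes in the table, 10020 had a mean of at least 1 FPKM in the vutiglabridin livers and were analysed, and 105 of these had a vehicle mean below 1 FPKM. Spread is the standard deviation (SD) of log2(FPKM + 1) between livers, a scale that shrinks the spread of low genes. The tissue label was checked against hepatocyte markers: 27 of 28 were in the table, all 27 passed the filter, and their summed level was 62682 to 78181 FPKM in the vutiglabridin livers and 53371 to 66182 in vehicle. Sex is not labelled, but every liver held RNA of Y-linked genes. The 4 tested summed to 22.5 to 39.2 FPKM in the vutiglabridin livers and 22.1 to 31.8 in vehicle.

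As background, hepatocytes make most plasma proteins, and during inflammation the cytokine interleukin-6 and its relatives drive them to release acute-phase proteins such as serum amyloid A, orosomucoid, haptoglobin and fibrinogen. Growth hormone pulses keep a male pattern of liver genes on, among them the major urinary proteins and Hsd3b5, and falling sterol levels switch on cholesterol synthesis through SREBP-2. In fibrosis, activated stellate cells lay down collagen. RNA of whole tissue cannot tell fewer cells of a type from less RNA per cell.

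Library 7 stood apart. The steps of low FPKM values implied 5.98 M (mega) fragments for it, against 12.03 to 15.25 M for the other 7 vutiglabridin libraries and 11.98 to 19.83 M for vehicle. It also listed 1413 genes at 0 (9.89% of the table), against 156 to 424 in the other 7 and 80 to 439 in vehicle. Main results are therefore given with and without it. Genes that follow depth were tested in the same way as the other relations below: 68 of 10020 genes (0.679%) passed limma's moderated test over the 8 livers with Benjamini-Hochberg adjustment, and 0 passed without library 7. At an unadjusted p under 0.05 in that test there were 1833 genes (18.3%), and 459 (4.58%) without library 7.

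Most genes spread a little more widely between the treated livers. The median SD over the 10020 genes was 0.16 in vutiglabridin, 0.15 without liver 7 and 0.14 in vehicle, on the log2 scale. The SD was larger in vutiglabridin than in vehicle for 6865 genes (68.5%), and for 6129 (61.2%) without liver 7. The median ratio of the SDs was 1.21, and 1.12 without liver 7. It was 1.19 for genes of 1 to 3 FPKM and 1.16 for genes of 30 FPKM and above, and 1.07 and 1.12 without liver 7. These counts describe genes that are not independent of each other.

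Gene by gene, the test of spread called nothing. In limma's test of the absolute deviations from the group mean, 0 of 10020 genes (0%) passed an adjusted p of 0.05, and 775 (7.73%) had an unadjusted p under 0.05, 685 of them wider and 90 narrower in vutiglabridin. Without liver 7 the counts were 0 and 631. With deviations taken from the group median in place of the mean, 0 passed and 433 (4.32%) had an unadjusted p under 0.05. The lowest adjusted p in limma belonged to Saa1 (0.149) and Saa2 (0.168), followed by Orm3, Serpina3n, Hc, Gsn, Saa4 and Hp at 0.322 to 0.324, all wider and not passed. A moderated test of the ratio of the variances, added after the data were seen and reliant on near-normal values, called 15 genes wider (0.15% of those tested) and 1 narrower (0.00998%). The wider genes were Orm3, Saa2, Orm2, Saa1, Serpina3n, Saa4, Itih4, Mt2, Apcs, Pmp22, Itih3, Acpp, Fga, Mup9 and Mt1, and the narrower was Igfbp5. Without liver 7 it called 3, Orm3 and Saa2 as wider (0.02%) and Igfbp5 as narrower.

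**Figure D1:**
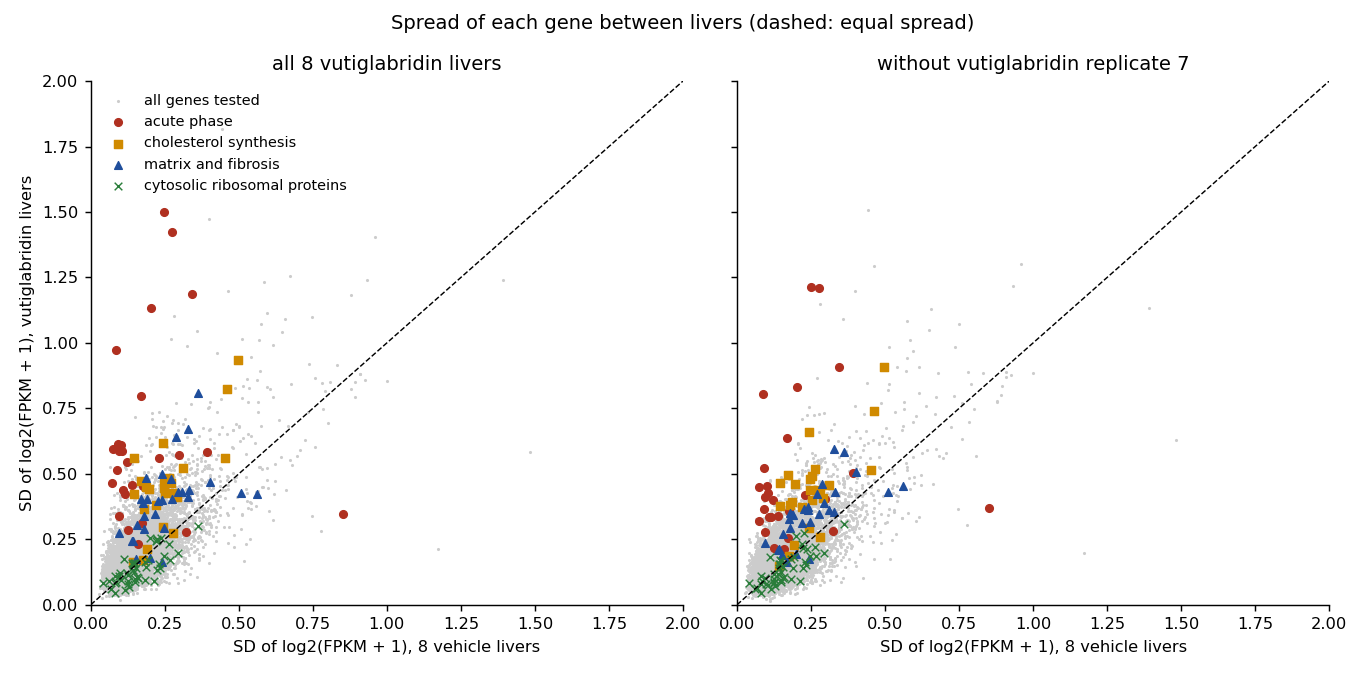
Spread of each of the 10020 genes between the 8 vehicle livers (horizontal) and the 8 vutiglabridin livers (vertical), as the SD of log2(FPKM + 1), with every vutiglabridin liver and without liver 7; the larger coloured marks are the acute-phase, cholesterol synthesis, matrix and ribosomal protein lists. The line marks equal spread, and 68.5% of the genes lie above it with all 8 livers and 61.2% without liver 7.

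Taken as whole transcriptomes, 2 livers stood farthest from the rest. The distance of a liver is the median over genes of its absolute log2 difference from the mean of the other livers of its group. It was 0.176 in liver 4 and 0.172 in liver 7, and 0.0949 to 0.123 in the other 6, against 0.0924 to 0.126 in vehicle. The group means were 0.127 ± 0.030 (SD, n = 8) and 0.107 ± 0.012 (n = 8), a difference of 0.0203 that did not pass a 2-sided exact permutation test (p = 0.102 over all 12870 splits). Without liver 7 that exact p was 0.194. It passed without liver 6 (exact p = 0.0143) or without liver 8 (exact p = 0.0384), both of them livers with small distances.

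Acute-phase genes made up the group with the widest gap to vehicle among the lists examined. All 27 genes on the list were tested. Their median SD was 0.56 in vutiglabridin, 0.41 without liver 7 and 0.14 in vehicle, beside 0.16, 0.15 and 0.14 over all genes. The SD was larger than in vehicle for 25 of 27 genes, with and without liver 7, beside 68.5% and 61.2% of all genes. The exceptions were Serpina3k and Hamp. At an unadjusted p under 0.05 the limma test of spread put 20 of the 27 as wider and 1 as narrower, beside 6.84% and 0.898% of all genes, and none passed adjustment. The variance ratio test called 10 of the 27 as wider, beside 0.15% of all genes, and 2 without liver 7, beside 0.02%.

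Saa1 and Saa2 encode the serum amyloid A proteins of the acute phase. In livers 1 to 8 Saa1 stood at 40.4, 378, 68.3, 242, 51.7, 79.6, 528 and 57.4 FPKM. Livers 2, 4 and 7 were above the vehicle range of 77.8 to 137 FPKM, livers 1, 3, 5 and 8 were below it and liver 6 was just inside it. The highest of the 8 livers was 13.1 times the lowest, and 9.38 times without liver 7, against 1.76 times in vehicle. The SD of Saa1 was 1.42, 1.21 without liver 7 and 0.28 in vehicle. The mean deviation was larger than in vehicle by 1.09 ± 0.19 (SE) on the log2 scale, with an adjusted p of 0.149 in limma and of 0.0786 in the variance ratio test without liver 7.

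Saa2 ran in the same order at the top, with 26.6, 224, 46.0, 158, 32.4, 56.4, 418 and 28.0 FPKM in livers 1 to 8 and a vehicle range of 46.6 to 83.0. Its SD was 1.501, 1.21 without liver 7 and 0.25 in vehicle. Reads of the 2 genes are hard to assign because the genes are near copies, and the same holds for the orosomucoid, metallothionein and major urinary protein families, so single members of these families are uncertain.

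Orm3, an orosomucoid of low abundance, had the largest ratio of spreads of the wider genes. It stood at 7.20, 30.03, 16.5, 36.9, 12.7, 14.6, 55.8 and 9.03 FPKM in livers 1 to 8, while the 8 vehicle livers lay between 18.6 and 23.3 FPKM. Livers 2, 4 and 7 were above every vehicle liver and the other 5 below every one. The SD was 0.97, 0.81 without liver 7 and 0.09 in vehicle. Its mean, like that of the other genes described in this way, hides livers on both sides of vehicle.

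The promoters of Saa1, Saa2 and Orm3 are shown because these genes had the widest spread against vehicle and moved together between the same livers. Each is the 250 bases before the RefSeq start (GRCm38.p6), 5′ to 3′ on the strand of the gene, with the letters TTGCACAA, a box of the C/EBP type, in capitals. The box was picked after these windows had been looked at. Saa1 is at chr7:46742981-46743230 on the minus strand, Saa2 at chr7:46751583-46751832 on the plus strand and Orm3 at chr4:63355908-63356157 on the plus strand.
Saa1: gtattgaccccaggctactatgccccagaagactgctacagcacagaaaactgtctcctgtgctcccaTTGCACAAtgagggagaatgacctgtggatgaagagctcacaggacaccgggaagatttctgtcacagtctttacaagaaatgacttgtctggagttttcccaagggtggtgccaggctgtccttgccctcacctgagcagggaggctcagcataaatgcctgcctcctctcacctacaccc
Saa2: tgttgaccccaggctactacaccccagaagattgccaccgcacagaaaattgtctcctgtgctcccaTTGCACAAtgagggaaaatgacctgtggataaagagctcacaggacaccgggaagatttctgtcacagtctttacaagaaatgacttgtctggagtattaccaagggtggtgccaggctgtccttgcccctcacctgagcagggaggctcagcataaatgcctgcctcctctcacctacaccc
Orm3: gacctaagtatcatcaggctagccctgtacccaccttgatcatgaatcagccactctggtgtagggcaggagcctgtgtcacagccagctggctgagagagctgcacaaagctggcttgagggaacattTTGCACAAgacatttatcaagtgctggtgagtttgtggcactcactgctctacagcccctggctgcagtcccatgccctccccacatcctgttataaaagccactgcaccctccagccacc
The Saa1 and Saa2 windows were identical at 238 of 251 aligned positions (94.8%), with 11 mismatches and 2 gaps. Searched on both strands, TTGCACAA was found in 294 of 32851 windows of the same length (0.895%) and in 3 of the 22 acute-phase genes that had a window, which are these 3. CTGGGAA, a core of the STAT3 type, was found in 5 of the 22 and in 9.10% of all windows. A match describes letters and is neither a site nor a cause.

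The carriers of the acute phase at high abundance spread less in fold but moved in the same livers. Serpina3n, a protease inhibitor, was at 231, 456, 232, 418, 203, 299.8, 657 and 253 FPKM, against 226 to 259 in vehicle. Fga, a fibrinogen chain, was at 1422, 2640, 1447, 1825, 974, 1255, 3524 and 1318 FPKM, against 957 to 1178. Both were highest in liver 7 and lowest in liver 5. For Fga 7 of the 8 livers were above every vehicle liver, which differs from the serum amyloid genes. Lrg1, a leucine-rich glycoprotein, ran from 263 to 892 FPKM, against 275 to 422. Haptoglobin (Hp) ran from 2157 to 4624 FPKM, against 2587 to 3302.

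Hepcidin (Hamp), the iron hormone, went the other way. It lay between 474 and 974 FPKM in the vutiglabridin livers and between 141 and 649 in vehicle, where replicates 1, 2 and 3 were at 195, 243 and 141 FPKM. Its SD was 0.34, 0.37 without liver 7 and 0.85 in vehicle. Its adjusted p in limma was 0.339 (not passed).

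**Figure D2:**
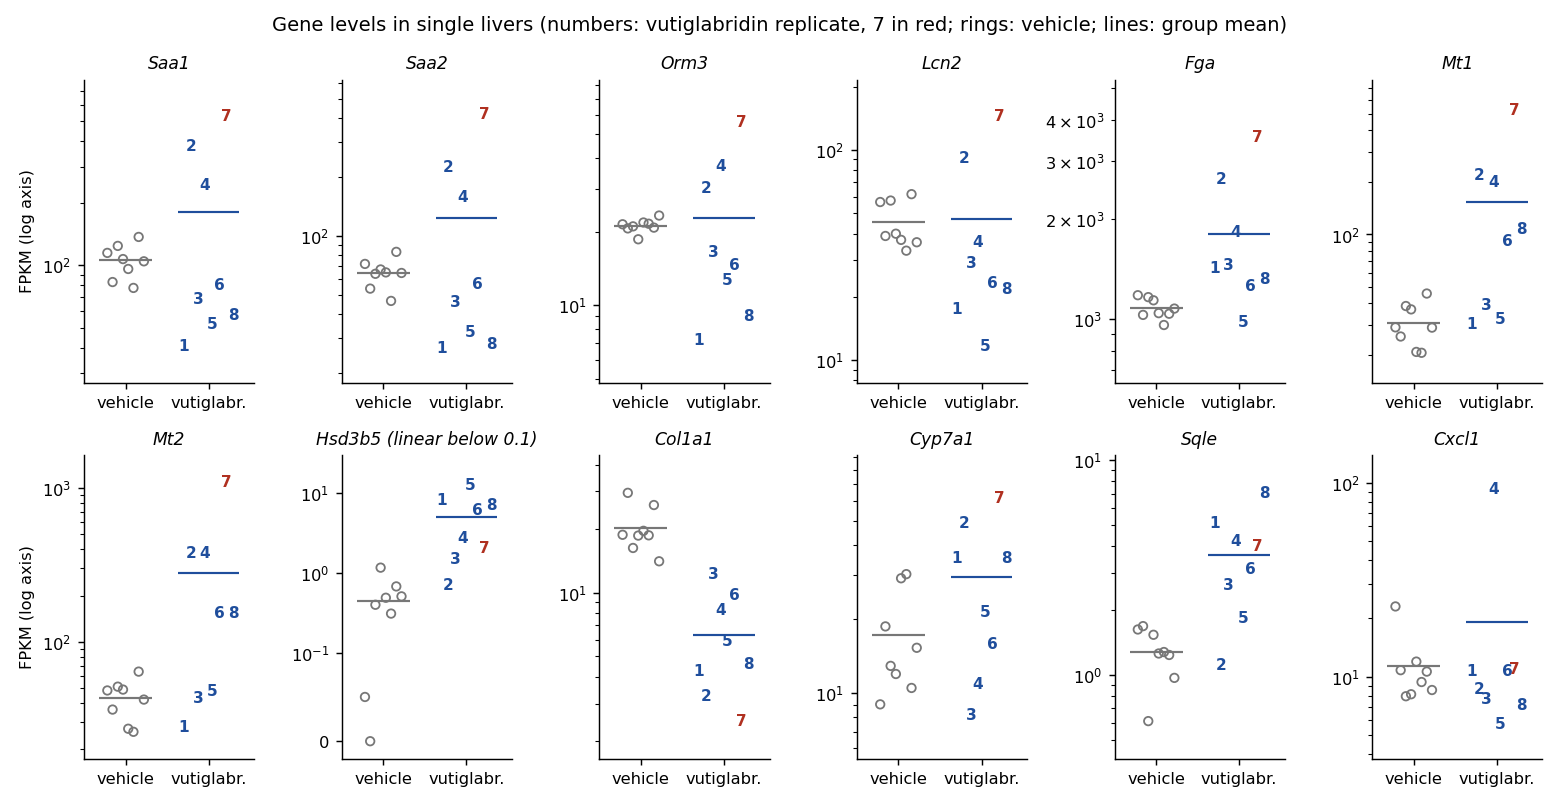
FPKM of selected genes in each of the 8 vutiglabridin livers and the 8 vehicle livers, on log axes (the Hsd3b5 panel is linear below 0.1); numbers are vutiglabridin livers, rings are vehicle livers and lines are group means. Saa1, Orm3 and Mt2 are highest in liver 7 and span far more in vutiglabridin than in vehicle, Hsd3b5 is lowest in liver 2, and Col1a1 is lowest in liver 7.

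As a group the 27 genes rose and fell together. The median correlation between pairs of them was 0.84 over the 8 livers, 0.67 over 7 livers without liver 7 and 0.06 over the 8 vehicle livers, against 0.003 over all genes. All genes of a liver come from the same library and share its depth. The mean log2 deviation of the list from the mean of the 8 livers was 0.95 in liver 7, 0.58 in liver 2 and 0.18 in liver 4, and between -0.52 and -0.27 in the other 5. In vehicle it stayed between -0.06 and 0.08. Liver 7 was the highest of the 8 for 23 of the 27 genes, and liver 5 the lowest for 12. Summed over the list, the level was 15928 to 32732 FPKM with a median of 17452, against 14789 to 16906 in vehicle.

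Metallothioneins bind zinc and copper and are induced by metals, glucocorticoids and inflammation. Mt2 was at 27.7, 375, 42.9, 372, 47.3, 152, 1084 and 153 FPKM in livers 1 to 8, against 26.1 to 64.1 in vehicle. Livers 2, 4, 6, 7 and 8 were above every vehicle liver and livers 1, 3 and 5 were within the vehicle range. Mt1 was at 30.3, 219, 38.6, 199, 32.02, 91.4, 524 and 107 FPKM, against 20.7 to 45.5, and split the livers in the same way. Mt2 had the largest SD of all genes analysed, 1.82, with 1.51 without liver 7 and 0.44 in vehicle. The highest liver had 39.1 times the lowest, 13.6 times without liver 7 and 2.46 times in vehicle. Its adjusted p was 0.378 in limma (not passed), 0.0253 in the variance ratio test and 0.304 in that test without liver 7. The list that holds them, of glucocorticoid-responsive and metallothionein genes, did not share this excess: 5 of its 12 tested genes spread more widely than in vehicle, with and without liver 7, and the median ratio of the SDs was 0.97 and 0.95.

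The windows before the 2 metallothionein starts are shown because the genes lie next to each other on chromosome 8 and moved together. Capitals mark TGCACNC and TGCGCNC, the forms of the metal response element core, on either strand. Mt2 is at chr8:94172368-94172617 and Mt1 at chr8:94178839-94179088, both on the plus strand (RefSeq, GRCm38.p6, 250 bases before the start).
Mt2: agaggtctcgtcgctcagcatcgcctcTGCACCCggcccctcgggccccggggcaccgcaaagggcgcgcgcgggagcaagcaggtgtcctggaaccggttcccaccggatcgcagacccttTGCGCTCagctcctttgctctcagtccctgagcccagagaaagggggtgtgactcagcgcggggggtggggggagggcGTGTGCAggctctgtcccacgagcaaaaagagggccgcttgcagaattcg
Mt1: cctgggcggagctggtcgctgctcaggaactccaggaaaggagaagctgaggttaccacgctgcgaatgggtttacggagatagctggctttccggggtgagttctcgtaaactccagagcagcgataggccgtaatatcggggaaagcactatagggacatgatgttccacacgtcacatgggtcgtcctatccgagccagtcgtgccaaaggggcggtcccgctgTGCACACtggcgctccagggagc
The Mt2 window held 3 matches, 2 on the plus and 1 on the minus strand, and the Mt1 window held 1. Each count covers only the 250 bases before the RefSeq start used, and matches past that start were not counted. The 2 counts therefore do not compare the whole promoters. Of all 32851 windows 21.4% held at least 1 match and 415 (1.26%) held at least 3. A match is again a run of letters and no more.

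Lcn2, lipocalin-2, an iron-siderophore binding protein made by hepatocytes in the acute phase and by neutrophils, served as the measure of this variation. It was at 17.4, 90.6, 28.7, 36.4, 11.6, 23.2, 144 and 21.6 FPKM in livers 1 to 8, against 33.1 to 61.6 in vehicle. Livers 2 and 7 were above every vehicle liver, liver 4 was within the vehicle range and the other 5 were below it. Its SD was 1.19, 0.91 without liver 7 and 0.34 in vehicle.

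Over the 8 livers, 48 of 10019 genes (0.479%) followed Lcn2 in limma with Benjamini-Hochberg adjustment, 29 higher with it (0.289%) and 19 lower (0.19%). Of the 27 acute-phase genes 16 were among the 29, and of the 27 hepatocyte markers 5, which include fibrinogen chains that both lists hold. Orm2 rose with Lcn2 by 0.93 log2 units for each log2 unit (limma adjusted p = 0.0012), Fga by 0.50 and Lrg1 by 0.53 (both 0.0018), and Lbp, which binds bacterial lipopolysaccharide, by 0.46 (0.0029). Saa1 and Saa2 rose by 1.12 and 1.18 for each unit (both 0.0058), and Mt1 by 1.09 (0.034), while Orm3 and Mt2 did not pass (0.062 and 0.065).

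Among the 19 genes lower where Lcn2 was higher, those with the lowest p were metabolic genes of the hepatocyte and a replication factor. Inmt, a methyltransferase, was at 472, 184, 327, 389, 422, 428, 129 and 433 FPKM in livers 1 to 8 (limma adjusted p = 0.0059). It was lowest in liver 7, and next lowest in liver 2. Aacs, which activates acetoacetate for lipid synthesis, was at 50.8, 15.6, 31.1, 35.5, 46.5, 33.3, 12.1 and 52.7 FPKM (0.0058). Hsd3b3, a steroid dehydrogenase, was at 20.9 FPKM in liver 7 and 43.4 in liver 5 (0.0059), and Mcm10, a replication factor, at 4.55 in liver 7 and 11.1 in liver 5 (0.0058).

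These calls rest on library 7 for their significance. Without it limma called 0 genes, with 617 at an unadjusted p under 0.05. It called 91 without liver 1, 19 without liver 6 and 27 without liver 8. All 29 higher genes kept a positive correlation with Lcn2 over the other 7 livers, the weakest 0.77 and the median 0.88, and all 19 lower genes a negative one, the weakest -0.75; these 7 livers also took part in the call, so this is a description. Lcn2 itself had a Pearson correlation with depth of -0.63 over the 8 livers (exact permutation p = 0.0955, adjusted over 6 relations 0.287), a Spearman correlation of -0.05 (exact p = 0.935), and a Pearson correlation of 0.23 without library 7 (exact p = 0.640). None of the 48 genes was among the 68 that passed the test on depth, but missing that threshold does not show a gene free of depth. The acute-phase list had a median correlation with depth of -0.66 over the 8 livers, beside -0.02 over all genes. The part of depth in the result was not tested further.

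In vehicle 0 of 10019 genes (0%) followed Lcn2 in limma, with 839 at an unadjusted p under 0.05. Of the 29 higher genes 25 had a positive correlation there, beside 4839 of all 10019. The test of the difference between the 2 groups' slopes also called 0 genes, with 656 at an unadjusted p under 0.05 (6.55%), so a difference in how genes follow Lcn2 between the groups was not shown.

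Markers of neutrophils, the other main source of Lcn2, were low. Of 11 markers 8 were in the table and 3 passed the filter, S100a8, S100a9 and Csf3r. The 8 summed to 2.10 to 9.02 FPKM in the vutiglabridin livers and 3.99 to 7.98 in vehicle, with the highest sum in liver 7. S100a8 was at 5.30 FPKM in liver 7 and 2.14 in liver 4, and at 0.36 to 1.42 in the other 6. Ltf, Elane, Mpo and Cxcr2 were below 0.5 FPKM in every vutiglabridin liver, and Mpo was listed at 0 in 6 of them. Liver 2, second for Lcn2, had S100a8 at 0.45 FPKM. The part of neutrophils in the Lcn2 values was not tested.

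Another pattern ran through male-biased genes. Hsd3b5, a steroid dehydrogenase of male mouse liver, was at 8.20, 0.70, 1.48, 2.74, 12.4, 6.03, 2.05 and 7.14 FPKM in livers 1 to 8, and at 0 to 1.17 in vehicle. Liver 2 was within the vehicle range and the other 7 above it. Its SD was 1.05, 1.09 without liver 7 and 0.36 in vehicle, where the low levels shrink the spread on this scale; the adjusted p in limma was 0.339 (not passed).

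Slco1a1, an organic anion uptake transporter of male liver, followed it. It was at 36.3, 9.06, 14.4, 16.6, 50.2, 34.8, 16.3 and 41.0 FPKM, so that liver 5 was highest and liver 2 lowest for both genes. The correlation with Hsd3b5 was 0.99 with all 8 livers and also without liver 7, and 0.94 in vehicle, where Slco1a1 ran from 3.01 to 16.8 FPKM. It was the 1 gene of 10019 (0.00998%) that passed limma on Hsd3b5 (adjusted p = 0.00027).

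Of 24 tested genes on the male-biased growth hormone list 20 had a larger SD than in vehicle, and 18 without liver 7. Over all genes the shares were 68.5% and 61.2%. Their median SD was 0.48, 0.40 without liver 7 and 0.36 in vehicle, so most of this spread was present in vehicle too. Among 15 tested major urinary proteins, pheromone carriers secreted by male liver, 14 spread more widely, and 10 without liver 7, beside those same shares. Their median SD was 0.78, 0.50 without liver 7 and 0.50 in vehicle. In every liver their summed level made up most of that of the male-biased list. The sums ran from 7967 to 17851 FPKM and from 8604 to 18512 FPKM in vutiglabridin. The counts for these lists are therefore not separate findings. Mup11 was at 89.8, 27.0, 25.0, 26.7, 220, 112, 172 and 86.4 FPKM and at 2.27 to 17.9 in vehicle. Livers 1, 5, 6 and 8 were high and livers 2, 3 and 4 low for both this gene and Hsd3b5, while liver 7 was behind only liver 5 for Mup11 and above only livers 2 and 3 for Hsd3b5. Mup7 was highest in liver 7, at 389 FPKM against 24.4 to 135 in the other 7. Of the 15 major urinary protein genes 4 were among the 24 lower at greater depth. Selenbp2, a selenium-binding protein of male liver, was highest in liver 5, at 50.4 FPKM, and lowest in liver 2, at 3.76.

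Lcn2 and Hsd3b5 ran in opposite directions between the treated livers. The Pearson correlation was -0.81 (2-sided exact permutation p = 0.0112, adjusted over 15 pairs 0.117) and the Spearman correlation -0.88 (exact p = 0.00724, adjusted 0.109), so the pair did not pass adjustment. Without livers 2 and 7, the farthest from the median of Lcn2, the Pearson correlation was -0.88. Without liver 7 alone it was -0.91, with an adjusted exact p of 0.0208, and the Spearman correlation -0.96 with 0.0417. In vehicle it was -0.04. The difference between the groups was not called in the slope test for Hsd3b5 or for any other gene.

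**Figure D3:**
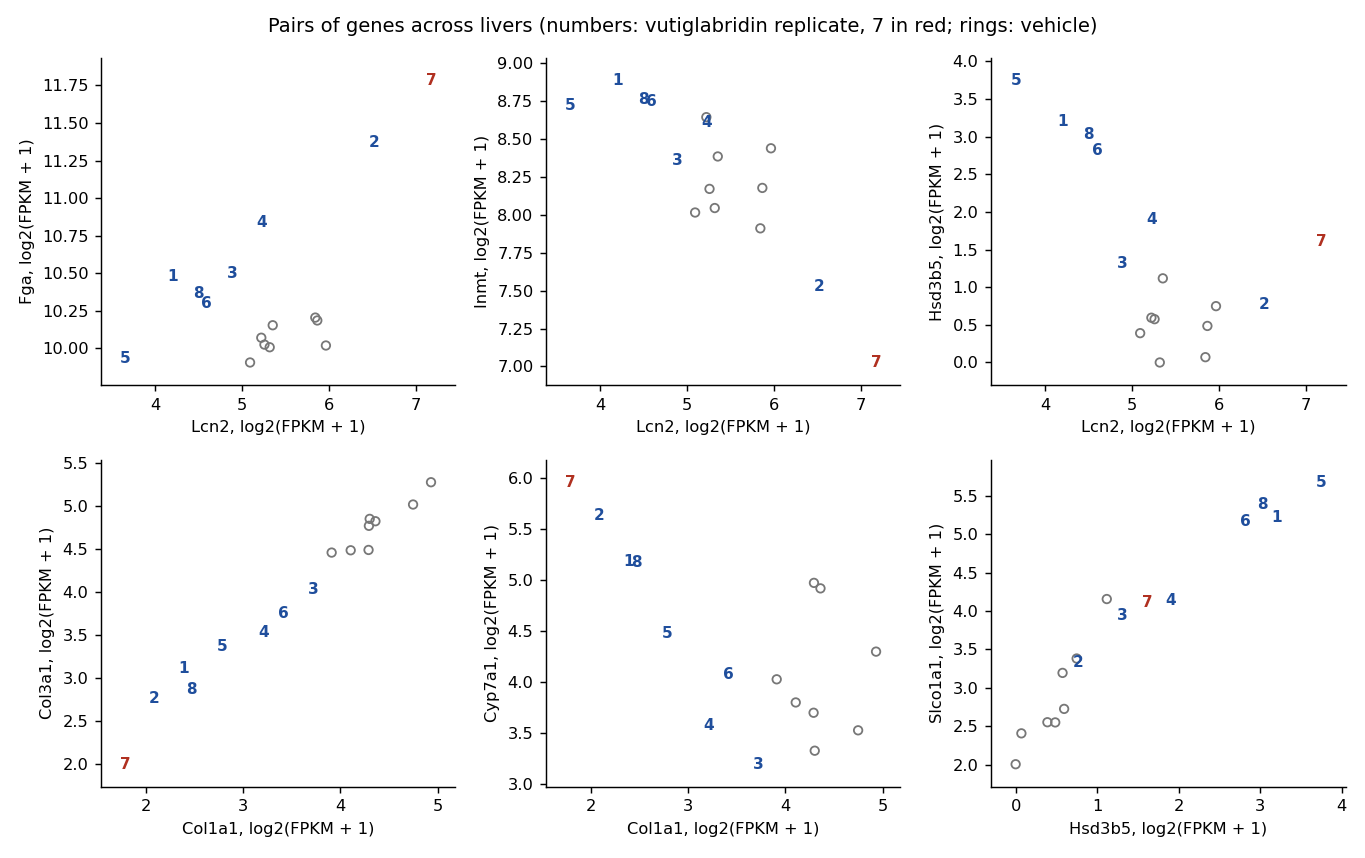
Pairs of genes across the 8 vutiglabridin livers and the 8 vehicle livers, in log2(FPKM + 1), with each vutiglabridin liver numbered. Lcn2 and Hsd3b5 fall along a descending line in vutiglabridin (Pearson correlation -0.81) and show no line in vehicle (-0.04).

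Matrix genes also moved together. Col1a1, the main chain of type I collagen, was at 4.24, 3.24, 12.2, 8.24, 5.90, 9.64, 2.47 and 4.56 FPKM in livers 1 to 8. All 8 livers were below the vehicle range of 14.0 to 29.5 FPKM. Within vutiglabridin, liver 3 was highest and liver 7 lowest, and the highest was 4.92 times the lowest, 3.75 times without liver 7 and 2.10 times in vehicle. The SD was 0.67, 0.60 without liver 7 and 0.33 in vehicle; the adjusted p of the spread was 0.592 in limma (not passed).

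Over 30 tested genes of 38 on the matrix list, 26 spread more widely than in vehicle, and 25 without liver 7. Over all genes the shares were 68.5% and 61.2%. The median SD was 0.40, 0.35 without liver 7 and 0.24 in vehicle, and 13 of the 30 had an unadjusted p under 0.05, all wider, beside 6.84% of all genes. The median correlation between pairs was 0.74, 0.80 without liver 7 and 0.53 in vehicle, so the co-movement was present in vehicle too. Liver 3 was the highest for 17 of the 30 genes and liver 7 the lowest for 19. Col3a1, the chain of type III collagen, was at 7.66, 5.79, 15.3, 10.6, 9.29, 12.4, 3.00 and 6.32 FPKM, against 21.0 to 37.8 in vehicle. Timp1, an inhibitor of matrix proteases, was listed at 0 in liver 7, the shallow library, and was at 0.84 to 4.07 FPKM in the other 7, all below the vehicle range of 4.30 to 10.1.

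In limma 135 of 10019 genes (1.35%) followed Col1a1, 110 higher with it (1.1%) and 25 lower (0.25%). The 110 held 16 of the 30 matrix genes, 4 of 9 antigen presentation genes, 4 of 15 stellate cell markers and 2 of 19 macrophage markers. Col3a1, Col1a2 and the proteoglycan Bgn had an adjusted p of 0.0059, and Cd63, a tetraspanin of lysosomes and exosomes, one of 0.0078. Without liver 7 limma called 3 genes, 1 higher and 2 lower, and it called 42 without liver 2, 12 without liver 3 and 26 without liver 6. In vehicle it called 0, with 383 at an unadjusted p under 0.05, though 108 of the 110 had a positive correlation with Col1a1 there, beside 4723 of all 10019. The slopes differed between the groups for 0 genes, with 213 at an unadjusted p under 0.05.

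Cyp7a1, the rate-limiting enzyme of bile acid synthesis, ran against Col1a1 with the lowest p of any gene. It was at 35.1, 48.7, 8.15, 10.9, 21.2, 15.8, 61.1 and 35.0 FPKM in livers 1 to 8, against 9.03 to 30.4 in vehicle. Livers 3, 4 and 6, the 3 with the most Col1a1, had the least Cyp7a1, and livers 2 and 7, with the least Col1a1, had the most. It fell by 1.44 ± 0.12 (SE) log2 units for each unit of Col1a1 (limma adjusted p = 0.0012), with a correlation of -0.97, and -0.96 without liver 7. Sult2a7, a sulfotransferase, had the same shape, with 8.12 FPKM in liver 7 and 0.98 in liver 3 (0.0078). Urad, of uric acid breakdown, ran from 22.4 FPKM in liver 3 to 69.5 in liver 7 (0.017), and Lpgat1, a lysophospholipid acyltransferase, from 22.4 in liver 3 to 49.3 in liver 7 (0.020).

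Depth moved with Col1a1. Its Pearson correlation with the implied fragments was 0.69 (exact permutation p = 0.0203, adjusted over 6 relations 0.122), its Spearman correlation 0.74 (exact p = 0.0458, adjusted 0.275), and without library 7 the Pearson correlation was 0.65 (exact p = 0.122). Of the 110 genes higher with Col1a1, 2 also followed depth, and of the 25 lower ones 0. The part of depth in the Col1a1 pattern was not tested further.

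Markers of other cell types moved with the matrix genes in part. Antigen presentation genes were highest in livers 3, 5 and 6: H2-Eb1, a class II histocompatibility chain, was at 60.3, 54.5 and 51.0 FPKM there, at 40.1 in liver 4 and at 18.7 to 29.3 in livers 1, 2, 7 and 8. Of the 9 tested genes on that list, 7 spread more widely than in vehicle, and 8 without liver 7, beside 68.5% and 61.2% of all genes.

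Of 18 cholangiocyte markers 10 were tested. All 10 spread more widely than in vehicle, and 9 without liver 7, beside 68.5% and 61.2% of all genes. Their median SD was 0.48, 0.38 without liver 7 and 0.30 in vehicle. Their median correlation with depth was 0.66 over the 8 livers, beside -0.02 over all genes. In limma 2 of the 10 were higher at greater depth, beside 0.439% of all genes. Library 7 was the lowest for 6 of the 10. The part of depth in this spread was not tested. Krt19, a keratin of bile ducts, was at 0.90, 1.59, 3.26, 3.55, 3.35, 3.00, 0.27 and 2.53 FPKM. All 18 markers were in the table, and their sum was 382 FPKM in liver 7, the lowest, and reached 783 in the highest. That sum is mostly Krt8, Krt18 and Spp1, which other liver cells also express: Krt8 ran from 142 to 268 FPKM, Krt18 from 154 to 341 and Spp1 from 64.4 to 180.0. The duct markers Sox9 and Epcam were low like Krt19, at 0.97 to 4.40 and 1.31 to 5.98 FPKM. The list's median correlation between pairs was 0.76, 0.73 without liver 7 and 0.23 in vehicle. Tspan8, a tetraspanin of epithelia, was at 1.97 to 2.39 FPKM in livers 1, 2 and 7 and at 6.53 to 7.38 in the other 5.

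By their median SD, stellate cell markers spread little more than in vehicle. Of 15 tested, 9 had a larger SD than in vehicle, and 8 without liver 7, beside 68.5% and 61.2% of all genes. Their median SD was 0.29, 0.26 without liver 7 and 0.27 in vehicle. At an unadjusted p under 0.05 the limma test of spread put 4 of the 15 as wider and 0 as narrower. The shares of all genes were 6.84% and 0.898%, and none passed adjustment. Of 11 tested genes on the list of Kupffer cells, the resident macrophages, 5 were wider, and 4 without liver 7, beside the same shares of all genes. Their median SD was 0.40, 0.43 without liver 7 and 0.41 in vehicle. Cdh5 is also on the list of sinusoidal endothelial markers, so these genes do not stand for Kupffer cells alone. Marco, a scavenger receptor of Kupffer cells, was at 8.17 FPKM in liver 4, 4.87 in liver 7 and 3.45 in liver 6, and at 0.36 to 1.38 in the other 5. Of 14 T and NK cell markers and 8 B and plasma cell markers in the table, 1 each passed the filter. The 14 summed to 4.02 to 14.0 FPKM against 7.78 to 19.5 in vehicle, and the 8 to 2.58 to 6.71 against 3.97 to 63.3. The part of these cell types in the covariation was not tested.

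**Figure D4:**
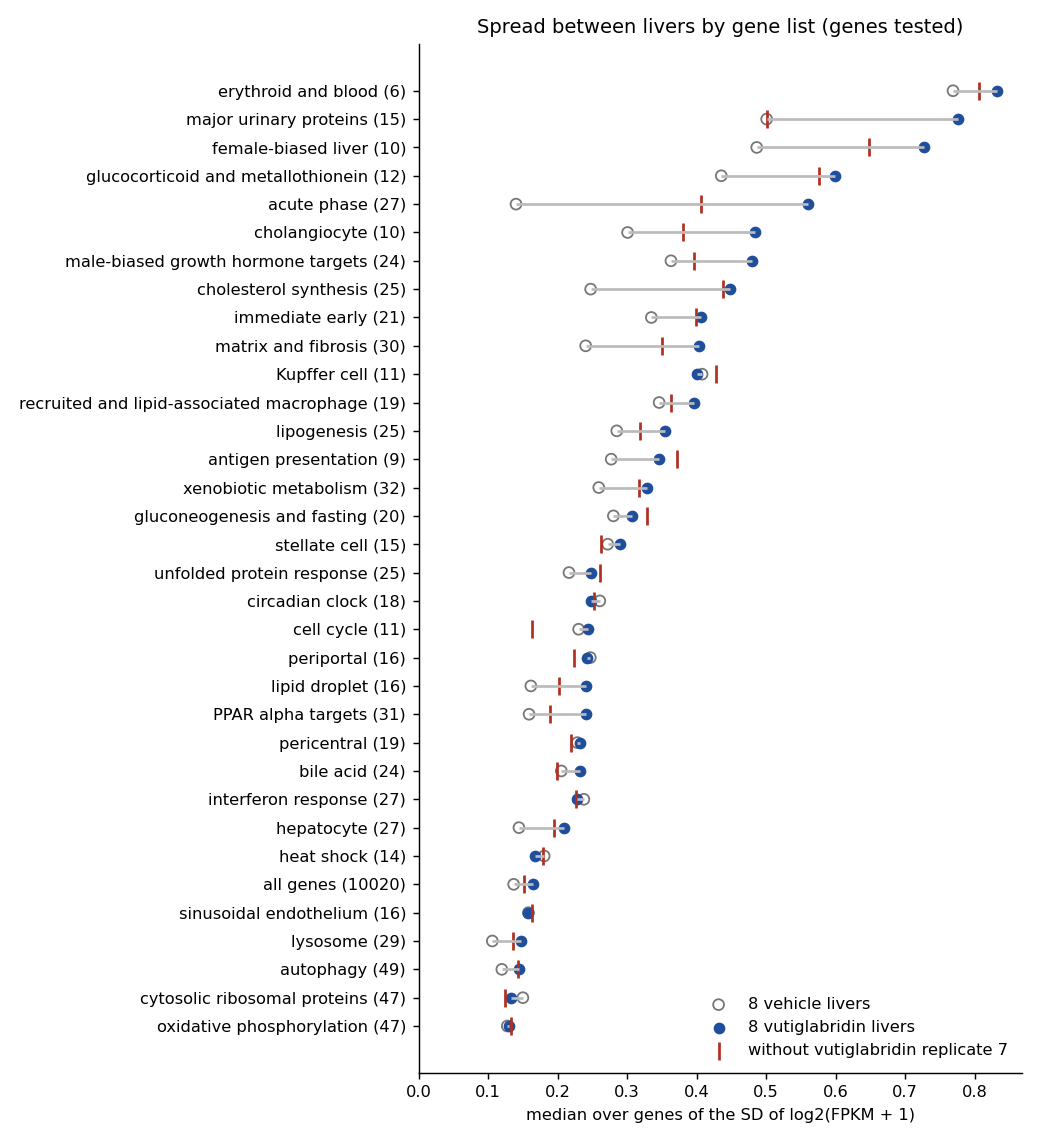
Median SD of log2(FPKM + 1) over the tested genes of each list, in the 8 vutiglabridin livers, in 7 of them without liver 7, and in the 8 vehicle livers. The acute-phase list has the widest gap (0.56, 0.41 and 0.14), while oxidative phosphorylation, at 0.13 in all, has none.

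Cholesterol synthesis had its highest values in other livers than the acute phase. The mean log2 deviation of the list was 0.70 in liver 1 and 0.42 in liver 8, and lowest in livers 7 (-0.40) and 2 (-0.36), the 2 highest for the acute phase. The other livers did not run in opposite directions. Liver 4 was above the mean for both lists (0.19 and 0.18), and livers 3, 5 and 6 were below it for both. Of its 25 genes 3 had a positive correlation with Lcn2, 4 without liver 7 and 5 in vehicle, beside 5094, 5099 and 4839 of all 10019. The median correlation was -0.49, -0.35 without liver 7 and -0.31 in vehicle, so this direction was present in vehicle too. All 25 listed genes were tested, and 23 spread more widely than in vehicle, 24 without liver 7, beside 68.5% and 61.2% of all genes. The median SD was 0.45, 0.44 without liver 7 and 0.25 in vehicle, and the median correlation between pairs was 0.80, 0.82 and 0.52. Liver 1 was the highest for 18 of the 25 genes and liver 8 for 5.

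Mvd, a decarboxylase of the mevalonate branch, was at 28.0, 3.72, 8.26, 20.6, 8.21, 7.02, 4.32 and 14.95 FPKM in livers 1 to 8, against 3.85 to 11.9 in vehicle. Livers 1, 4 and 8 were above the vehicle range, liver 2 was just below it and the others were within it. Sqle, squalene epoxidase, was at 5.08, 1.11, 2.60, 4.19, 1.84, 3.10, 3.98 and 7.03 FPKM, against 0.61 to 1.69 in vehicle, and all livers but liver 2 were above that range. Liver 7 was the lowest for 11 of the 25 genes but not for Sqle.

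In limma 0 of 10019 genes (0%) followed Sqle, with 209 at an unadjusted p under 0.05. Cyp51, the sterol demethylase, was among the 4 genes with the lowest p in that direction, at 14.8 FPKM in liver 2 and 36.1 in liver 1 (not passed). The covariation within the list is thus described by the pair correlations above and was not called gene by gene.

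Lipogenic genes were high in liver 1 as well. The list's mean log2 deviation was 0.65 there and -0.44 in liver 7. Acly, which makes cytosolic acetyl-CoA, was at 226 FPKM in liver 1 and 49.3 to 116 in the other 7, against 58.1 to 135 in vehicle. Pnpla3, a lipid droplet protein induced by feeding, was at 16.2 FPKM in liver 1, 7.68 in liver 4 and 1.19 to 3.04 in the other 6. Over the 25 lipogenic genes 16 spread more widely than in vehicle, and 15 without liver 7, shares not above the 68.5% and 61.2% of all genes. The median SD was 0.35, 0.32 without liver 7 and 0.29 in vehicle, and none had an unadjusted p under 0.05.

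Liver 4 stood apart in early stress genes, though not in these alone. Its mean log2 deviation was also the highest of the 8 for cytosolic ribosomal proteins (0.22), oxidative phosphorylation (0.18) and heat shock genes (0.24). Single vehicle livers reached 0.25, 0.16 and 0.22 on these lists. Cxcl1, a chemokine that attracts neutrophils, was at 92.3 FPKM there and at 5.66 to 11.0 in the other 7, against 7.94 to 23.1 in vehicle. Its SD was 1.199 with all 8 livers, 1.29 without liver 7 and 0.46 in vehicle. Socs3, a feedback inhibitor of interleukin-6 signalling, was at 22.1 FPKM in liver 4, 10.2 in liver 7 and 3.33 to 8.73 in the other 6. Egr1, an immediate early transcription factor, was at 18.5 FPKM in liver 4 and 13.8 in liver 6. Over 21 immediate early genes the mean log2 deviation was 0.67 in liver 4 and 0.34 in liver 6, and at most 0.00 in the others; 14 of the 21 spread more widely than in vehicle, with and without liver 7, close to the 68.5% and 61.2% of all genes.

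The unfolded protein response was also highest in liver 4 and lowest in liver 1. The mean log2 deviation over 25 genes was 0.41 and -0.30 there. Of the 25, 19 spread more widely than in vehicle, with and without liver 7, beside 68.5% and 61.2% of all genes. In the limma test of spread 1 of the 25 had an unadjusted p under 0.05. Creld2, an endoplasmic reticulum stress gene, was at 46.9 FPKM in liver 4 and 14.5 to 25.4 in the other 7. Nfil3, a transcription factor of the clock and of immunity, was at 23.3 FPKM in liver 4, 15.6 in liver 7 and 8.26 to 11.2 in the other 6. Liver 4 was the third highest for Saa1 and for Lcn2, above the vehicle range for Saa1 and within it for Lcn2.

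Of the 6 genes tested against all others, Dbp and Cyp4a14, like Sqle, had no follower past the threshold over the 8 livers. Dbp, a clock output factor, was at 55.9, 35.0, 47.4, 57.0, 58.2, 49.5, 39.2 and 68.9 FPKM, and in limma 0 of 10019 genes (0%) followed it, with 745 at an unadjusted p under 0.05. Cyp4a14, a fatty acid hydroxylase induced by PPAR alpha, was at 245, 231, 126, 449, 83.8, 170.5, 372 and 367 FPKM, and 0 followed it, with 523 at an unadjusted p under 0.05. Of 18 tested clock genes 8 spread more widely than in vehicle, and 7 without liver 7. Among 31 tested PPAR alpha targets 19 did, with and without liver 7. Over all genes the shares were 68.5% and 61.2%. Dbp was lowest in livers 2 and 7, the 2 with the most Lcn2: its correlation with Lcn2 was -0.81 (exact permutation p = 0.0171, adjusted over 15 pairs 0.117; Spearman -0.74, exact p = 0.0458), and -0.27 without those 2 livers, so the relation rests on them. Its correlation with Hsd3b5 was 0.78 (exact p = 0.0235, adjusted 0.117; Spearman 0.81, exact p = 0.0218), 0.64 without livers 2 and 5, the farthest from the median of Hsd3b5, and 0.85 in vehicle. Of the 15 pairs of the 6 genes tested none passed adjustment with all 8 livers.

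Blood genes spread widely in both groups. The median SD of 6 tested erythroid genes was 0.83, 0.81 without liver 7 and 0.77 in vehicle. Of the 6, 6 were wider, and 5 without liver 7, beside 68.5% and 61.2% of all genes. Hbb-bs, a haemoglobin chain, was at 247 FPKM in liver 1, 192 in liver 5 and 46.6 to 108 in the other 6. These genes report the blood left in the tissue as well as any change in the cells, and the 2 cannot be told apart.

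Some genes hardly varied. The 5 genes of at least 10 FPKM with the lowest coefficient of variation were Mrpl9, Nit1, Prkar1a, Snx9 and Tmem242. Mrpl9, of the mitochondrial ribosome, lay between 18.5 and 19.3 FPKM in all 8 livers, a coefficient of variation of 1.39%, and between 15.97 and 19.78 in vehicle. Prkar1a, a regulatory subunit of protein kinase A, lay between 40.3 and 43.5 FPKM. As the 5 were picked for their low values, their tightness is no result.

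The paraoxonases are hydrolases of lactones and lipid peroxides, to which the study's title refers. The SD of Pon2 was below the median of all genes (0.16), and those of Pon1 and Pon3 were close to it. Pon2 lay between 7.23 and 8.48 FPKM in the 8 livers and between 7.63 and 9.26 in vehicle, with an SD of 0.08 and 0.09. Pon1, the form secreted with high-density lipoprotein, lay between 199 and 278 FPKM, against 163 to 230, with an SD of 0.15 and 0.14. Pon3 lay between 16.6 and 21.8 FPKM, against 15.7 to 20.5, with an SD of 0.14 and 0.13. None of the 3 had a wider or narrower spread at an unadjusted p under 0.05, which does not show that the spreads were equal.

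Of the housekeeping lists, oxidative phosphorylation and ribosomal proteins showed a smaller share of wider genes than the 68.5% over all genes. The median SD of 47 oxidative phosphorylation genes was 0.13 in both groups and without liver 7, and 20 of the 47 spread more widely than in vehicle, 25 without liver 7. Of 47 cytosolic ribosomal protein genes 17 did, and 12 without liver 7, with a median SD of 0.13, 0.12 without liver 7 and 0.15 in vehicle. Of autophagy genes, 49 of 49 tested, 35 had a larger SD than in vehicle, and 34 without liver 7, beside 68.5% and 61.2% of all genes. The median ratio of their SDs was 1.34, and 1.26 without liver 7, beside 1.21 and 1.12 over all genes. Their median SD was 0.14 with and without liver 7 against 0.12, and their mean log2 deviation stayed between -0.05 and 0.05 in every liver. Within that list liver 7 stood out for Wipi1, a phosphoinositide-binding protein of the forming autophagosome, at 8.61 FPKM against 3.50 to 5.55, and for its relative Wdr45, at 3.34 against 5.49 to 7.5.

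Igfbp5, a binding protein of insulin-like growth factors, was the 1 gene that the variance ratio test called narrower. It lay between 0.94 and 1.95 FPKM in the vutiglabridin livers. In vehicle 7 livers lay between 1.23 and 2.68 FPKM and replicate 3 was at 27.9, so that the wide spread in vehicle comes from 1 liver. The same vehicle liver had Jchain, the joining chain of immunoglobulins, at 41.4 FPKM, against 0.93 to 5.04 in the other 7 and 0.57 to 3.85 in the vutiglabridin livers.

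The main directions of variation drew these groups together. The first principal component of the 8 livers held 33.4% of the variance, the second 21.6% and the third 13.6%, against 25.1, 20.4 and 15.2% in vehicle. On the first, liver 7 scored 27.8 and liver 2 scored 9.82, and the other 6 lay between -10.7 and -0.55. Its largest positive weights were on Mt2, Saa2, Mt1, Saa1 and Lcn2 and its largest negative ones on Cfd, Cib3, Chrna4, Ppp1r3g and Timp1. On the second, liver 4 was highest at 19.3 and livers 8 and 5 lowest at -11.8 and -10.6. Its positive weights were on Saa2, Mt2, Cxcl1, Saa1 and Mt1 and its negative ones on Hbb-bs, Hsd3b5, Mup11, Hbb-bt and Mup9. On the third, liver 1 was highest at 14.8. Without liver 7 the first 3 components held 31.6, 22.5 and 16.7% of the variance.

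Cfd, the complement protease also called adipsin, had the largest SD of those with negative weights. It was at 0.72, 1.18, 14.5, 3.61, 11.7, 11.0, 0.54 and 9.45 FPKM in livers 1 to 8, and livers 1, 2 and 7 were lowest. Its SD was 1.40, 1.30 without liver 7 and 0.96 in vehicle. Cfd is made by fat cells as well. Of 8 adipocyte markers 4 were in the table, and their sum was lowest in liver 7, at 298 FPKM, and reached 774 in the highest liver. That sum is mostly Car3, at 288 to 762 FPKM, beside 4.34 to 10.7 for Fabp4 and 2.73 to 5.65 for Lipe. The remaining marker is Cfd itself, so the sum is no separate measure of fat tissue. The part of fat tissue in the Cfd values was not tested.

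**Figure D5:**
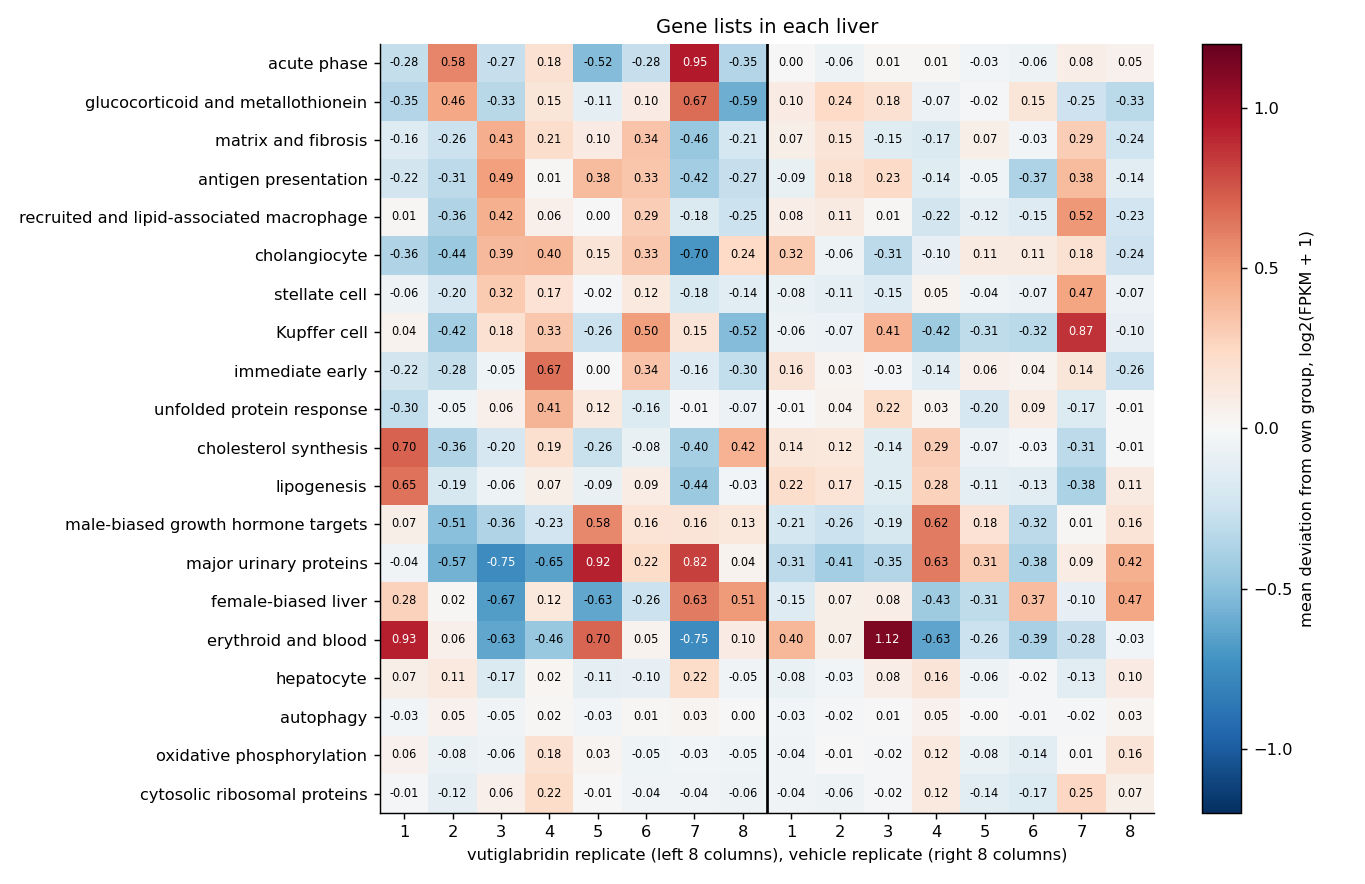
Mean log2 deviation of the tested genes of each list shown, from the mean of the liver's own group. The left 8 columns are vutiglabridin livers 1 to 8, and the right 8 columns are vehicle replicates 1 to 8. Rows are lists, and the colour scale runs from -1.2 to 1.2. Among the vutiglabridin livers, acute-phase genes are highest in livers 7 (0.95) and 2 (0.58) and matrix genes in liver 3 (0.43). Cholesterol synthesis is highest in liver 1 (0.70) and immediate early genes in liver 4 (0.67).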

How the data were processed

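RNA of 24 mouse livers was isolated on Qiagen RNeasy columns and sequenced on an Illumina NovaSeq from TruSeq Stranded mRNA libraries, per the labels' protocols. The deposited table holds 1 FPKM value per gene and liver, which the authors computed. The submitters' processing notes list HISAT2, StringTie and DESeq2. What each did, in which version, on which build and after which gene filter is not given in the sources used here. All 14293 gene identifiers matched GENCODE M21 (GRCm38). FPKM divides by gene length and library, so very abundant genes can shift all others, and reads of near-identical genes may be split.

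Values were taken as log2(FPKM + 1) for genes with a mean of at least 1 FPKM in the 8 vutiglabridin livers. Groups came from the labels. Depth was estimated from the steps of low values of genes with up to 1500 bp of exons; each of these values was within 0.2 fragments of a whole number. limma 3.58.1 (R 4.3.3, moderated, mean trend, 2-sided) tested the absolute deviations from group means, and each gene against Lcn2, Col1a1, Sqle, Hsd3b5, Dbp, Cyp4a14 and log2 depth, with Benjamini-Hochberg adjustment over all genes and 0.05 as the threshold. An interaction term tested whether slopes differed from vehicle. Pairs of these 6 genes and distances were tested by exact permutation (scipy 1.17.1). The scripts were tested on simulated data. Promoter windows are RefSeq's for GRCm38.p6, before RefSeq starts, which may differ from GENCODE's.

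The members and lists were chosen with earlier results of these data known. Named genes were the 12 with the largest SD, the 8 with the lowest p in each direction of spread, the 3 with the largest SD of each list, the 6 genes above with the 4 nearest genes in each direction, the 5 steadiest, the paraoxonases and the 5 largest weights of 2 components; some named items are not reported here. Acpp, Apcs, Igfbp5, Itih3, Itih4, Pmp22 and Serpina3k were chosen after their values were seen, as were the variance ratio test and the setting that leaves out livers 2 and 7. Alternatives were a pseudocount of 0.1, no filter, TPM rescaling, quantile normalization, deviations from the group median, a replicate block and leaving out each liver. The block in the slope and distance tests was chosen after seeing the data.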

Additional observations from a re-analysis of the deposited data

Results flagged for a closer look

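Single livers far from the other 7 of their group were looked for in 146 sets of 8 values (genes, depth and genes listed at 0), and 12 (8.22%) passed Dixon's 95% limit, where chance gives about 1 in 20. Many of these genes were picked for a large SD and library 7 was known to be shallow, so the share cannot be read against chance. In vutiglabridin liver 4, Cxcl1 was at 92.3 FPKM (the other 7 at 5.66 to 11.0) and Creld2 at 46.9 (14.5 to 25.4). In vutiglabridin liver 7, Wdr45 was at 3.34 FPKM (5.49 to 7.5) and Cyp2b10, a phenobarbital-inducible cytochrome P450, at 7.60 (1.01 to 2.24). Library 7 also had 5.98 M (mega) implied fragments (12.03 to 15.25 M) and 1413 genes listed at 0 (156 to 424). In vehicle, Mup9 was at 0.29 FPKM in replicate 3 (0.90 to 1.51), Cxcl1 at 23.1 in replicate 1 (7.94 to 11.98), Cfd at 0.88 in replicate 6 (5.74 to 17.9), Jchain at 41.4 in replicate 3 (0.93 to 5.04), Wipi1 at 3.56 in replicate 2 (4.33 to 5.07) and Nrbf2 at 4.62 in replicate 4 (5.5 to 6.3).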

How the results depend on the processing

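No fit changed the direction of the median ratio of spreads, which was 1.22 with a pseudocount of 0.1, 1.16 without a filter, 1.18 after TPM rescaling and 1.16 after quantile normalization. The spread test called 0 to 6 genes when 1 liver was left out, and the variance ratio test called 16. With deviations from the group median the spread test called 0. Vutiglabridin and vehicle livers share replicate numbers, and the labels do not state that these pair samples. Same-numbered livers correlated at -0.13 to 0.30, with 6 of the 8 pairs over 0.1. Of the 8 vutiglabridin livers 3 were closest to their own number. Such correlations cannot decide whether same-numbered livers share a batch or a pairing. With the replicate block the spread test called 0 genes, with 788 at an unadjusted p under 0.05. The tests of a difference in slope then called 0 for each of the 6 genes, with 312 to 598 at an unadjusted p under 0.05. With same numbers as pairs the difference of distances was 0.0203 (exact sign-flip permutation p = 0.0625). No paired analysis was possible because 1 group has no pairs for the relations within vutiglabridin.

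Genes following Lcn2 numbered 21 without a filter, 0 without livers 2 and 7 and 0 to 91 with 1 liver left out (91 without liver 1, 19 without 6, 0 without 7, 27 without 8). Those following Col1a1 numbered 225 after TPM rescaling, 1 without livers 2 and 7 and 3 to 129 with 1 left out (42 without liver 2, 12 without 3, 26 without 6, 3 without 7). Those following Sqle numbered 1 without livers 2 and 7, and slopes on Sqle differed between groups for 0 to 3 genes (3 without vehicle replicate 8). Leaving 1 out gave 1 to 2 genes for Hsd3b5 and 0 to 1 for Dbp. Depth gave 113 with a pseudocount of 0.1, 28 after quantile normalization, 0 without livers 2 and 7 and 0 to 153 with 1 left out. The difference of distances was 0.0135 to 0.0274 with 1 left out.

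Without livers 2 and 7 the correlation turned to 0.57 for Lcn2 and Col1a1, 0.29 for Lcn2 and Sqle, -0.76 for Col1a1 and Hsd3b5 and -0.80 for Col1a1 and Dbp. That of Dbp and Cyp4a14 turned to -0.11 after TPM rescaling and -0.086 after quantile normalization. With 1 liver left out the ranges were -0.48 to 0.19 for Lcn2 and Sqle, -0.91 to -0.74 for Lcn2 and Hsd3b5, -0.45 to 0.061 for Col1a1 and Sqle, -0.20 to 0.42 for Col1a1 and Hsd3b5, -0.0016 to 0.80 for Sqle and Hsd3b5, -0.52 to 0.15 for Hsd3b5 and Cyp4a14 and -0.24 to 0.27 for Dbp and Cyp4a14. Without livers 2 and 7 the slope of Car3 on Lcn2 turned to 0.032, and the difference of spread to -0.051 for Clpx, -0.068 for Inmt and -0.013 for Lbp. The cause was not tested. Having 8 livers a group, 1 shallow library and no counts limits which small differences could be seen.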
